A study of Mus musculus with 2 samples.

Results

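Adipokines are the signalling proteins that fat tissue releases, and 10 genes for adipokines and their receptors were followed in interscapular brown adipose tissue (iBAT) of wild-type and Ucp1-knockout mice. They were chosen by symbol, as Adipoq, Lep, Retn, Rbp4, Nampt, Nrg4 and Metrnl for the secreted factors and Adipor1, Adipor2 and Lepr for the receptors, from 27179 genes listed in both libraries. All 10 were found. The animals were 20-day-old untreated C57BL/6N mice, which the series describes as male, of the genotypes wild-type (WT) and Ucp1 KO (Ucp1-KO), the latter lacking the brown fat uncoupling protein by design. Each genotype was represented by 1 directional poly(A) library made from iBAT of 3 pooled animals, so every value below is that of a pool, there are no replicates, and no p-value or standard deviation can be given. The way the knockout allele was built was not given in the sources used here, and the comparison addresses how young brown fat without UCP1 differs in RNA from the WT depot.

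Adiponectin, encoded by Adipoq, is secreted by adipocytes as multimers, and its receptors Adipor1 and Adipor2 are seven-transmembrane proteins of the PAQR family. Leptin (Lep) reports fat stores to the brain through the leptin receptor Lepr, and resistin (Retn) and retinol-binding protein 4 (Rbp4) are secreted proteins studied for their links to insulin resistance, the latter being the carrier of vitamin A in blood. Nampt is the enzyme that limits the NAD salvage pathway and is also found outside cells under the name visfatin. Neuregulin 4 (Nrg4) is an ErbB4 ligand enriched in brown fat, and meteorin-like (Metrnl) is a secreted factor linked to cold exposure and exercise.

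The libraries held 52950913 (WT) and 53216727 (Ucp1-KO) counts. Ucp1 itself had 366473 counts in WT and 37853 in Ucp1-KO, where its normalised level was 12.7% of WT. Adipocyte markers were present in both libraries and made up 2.08% of the WT and 2.04% of the Ucp1-KO counts, with all 14 above the count used below for examining a gene. Skeletal muscle markers made up 0.731% of the WT and 0.092% of the Ucp1-KO counts. Shares of counts here and below are of library totals, which include mitochondrially encoded genes, and not of normalised counts. The sex-linked transcripts differed between the libraries and went against the description of all animals as male: Xist had 32380 counts in WT and 16478 in Ucp1-KO, while the Y-linked Ddx3y had 0 counts in WT, which allows up to 6 counts, and 3446 in Ucp1-KO. Genotype, sex of the pooled animals and tissue taken with the depot therefore cannot be told apart in any difference below, and in bulk tissue fewer cells of a type and less RNA per cell cannot be told apart either.

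The sequences upstream of Lep, Retn and Rbp4, the 3 genes of the set with the lowest ratios of Ucp1-KO to WT, are shown beside that of Adipoq, the most abundant secreted member and the one with the highest ratio. Each run is the 250 bases before a RefSeq transcription start on the gene's own strand, 5′ to 3′, in GRCm38.p6, a build used here for these windows only. Capitals mark matches on either strand to the TATA box TATAAA, the CCAAT box (CCAAT), the GC box core GGGCGG, the C/EBP palindrome TTGCGCAA and the E-box CACGTG, and overlapping matches were merged.
Adipoq, chr16:23146286-23146535, plus strand: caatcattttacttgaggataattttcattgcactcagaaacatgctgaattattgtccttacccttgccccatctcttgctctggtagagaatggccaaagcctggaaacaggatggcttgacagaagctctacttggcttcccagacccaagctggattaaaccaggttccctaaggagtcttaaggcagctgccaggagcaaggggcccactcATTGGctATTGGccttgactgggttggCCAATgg
Lep, chr6:29059971-29060220, plus strand: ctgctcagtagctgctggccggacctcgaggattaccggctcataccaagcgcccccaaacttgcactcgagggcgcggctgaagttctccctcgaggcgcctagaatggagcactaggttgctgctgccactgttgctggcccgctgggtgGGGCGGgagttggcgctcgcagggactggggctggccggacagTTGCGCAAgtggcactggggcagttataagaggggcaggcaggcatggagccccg
Retn, chr8:3655520-3655769, plus strand: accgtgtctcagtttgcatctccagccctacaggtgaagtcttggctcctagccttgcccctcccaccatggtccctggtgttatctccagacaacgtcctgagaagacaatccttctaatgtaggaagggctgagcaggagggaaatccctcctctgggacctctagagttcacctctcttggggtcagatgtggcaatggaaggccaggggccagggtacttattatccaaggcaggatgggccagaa
Rbp4, chr19:38124812-38125061, minus strand: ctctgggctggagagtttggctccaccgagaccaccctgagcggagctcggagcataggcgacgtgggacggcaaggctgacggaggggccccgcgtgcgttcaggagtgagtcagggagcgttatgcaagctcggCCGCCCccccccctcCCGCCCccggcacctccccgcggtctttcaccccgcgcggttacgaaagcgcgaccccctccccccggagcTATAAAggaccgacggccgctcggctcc

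RefSeq windows, which run from 250 bases before to 50 bases after a start, were found for all 10 members, and Adipor1, Lepr and Rbp4 had 2 windows each. The Lep window held TTGCGCAA, a palindrome that C/EBP factors bind, with its leftmost base at -55 from the start, a motif in 0.183% of the 32851 windows of the table, and GGGCGG at -98. The Adipoq window held CCAAT at -34, -27 and -7, a motif in 37.4% of all windows, and it held 0 CpG dinucleotides, against a median of 7 over all windows. The Rbp4 window shown held TATAAA at -28, found in 13.6% of all windows, GGGCGG at -114 and -99, found in 35.7%, and 40 CpG dinucleotides. The Retn window had 2 CpG dinucleotides and none of the 5 motifs, and the Lep window had 19. The other Rbp4 window, not shown, held CCAAT at -162, none of the other motifs, and 5 CpG dinucleotides. Of the windows shown, those of Lep and Rbp4 thus both held GGGCGG. None of the 5 motifs was in all 3 of Lep, Retn and Rbp4, and the 3 windows shown differed widely in CpG content. A match describes letters in a window and is neither a binding site nor a cause.

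Among the 10 genes, Rbp4, Retn and Lep were lower in Ucp1-KO by at least 2-fold, at 19.6%, 26.9% and 41.9% of their WT levels, and none was higher by that much. Adipoq, at 179% of WT, and Metrnl, at 156%, were the highest ratios. The difference between the libraries is given as the log2 ratio, log2 of (Ucp1-KO + 0.5) over (WT + 0.5) on counts normalised by median-of-ratios size factors, with a 95% counting interval that covers counting error only. A gene was examined where its normalised counts averaged 10 or more, which held for all 10 and for 15212 genes in all, and of these 9.55% were at least 2-fold lower in Ucp1-KO and 7.42% at least 2-fold higher, against 3 and 0 of the 10. The median log2 ratio of the 10 was -0.14, and that of all genes examined was -0.0016. Counting intervals lay wholly below 0 for 6 members and wholly above 0 for 3, as they did for 30.5% and 31.5% of all genes examined. Differences beyond counting error were thus common at this depth, and the spread between animals is unknown.

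**Figure D1:**
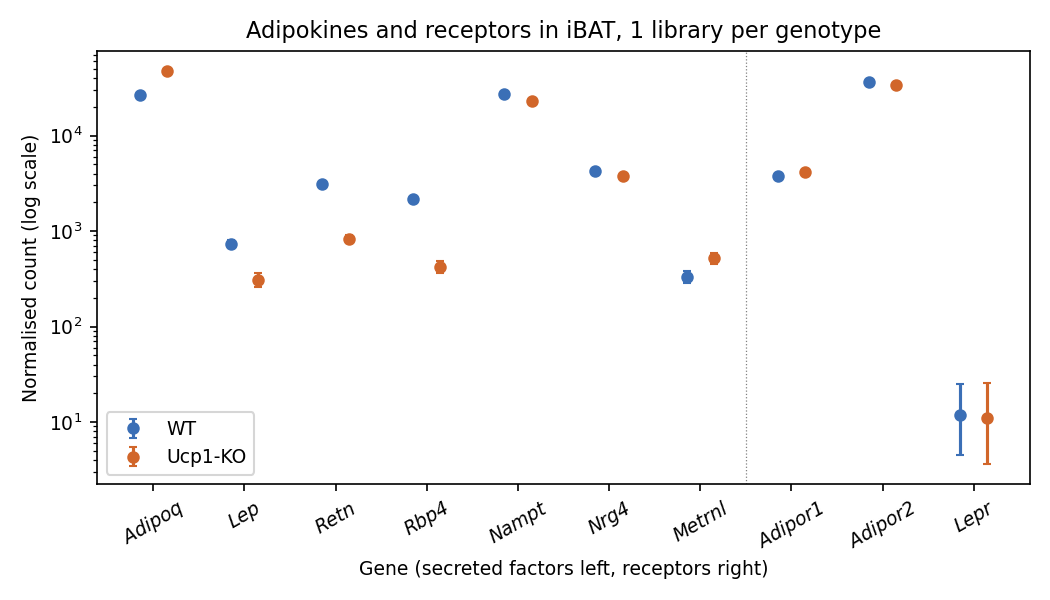
Normalised counts of the 10 genes in the WT and the Ucp1-KO library, with 95% Poisson intervals for counting error, on a log scale; each point is 1 library from 3 pooled animals. The intervals of the libraries are far apart for Lep, Retn and Rbp4, where Ucp1-KO is lower, and for Adipoq, where it is higher, and they overlap widely for Lepr.

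Adipoq (Entrez gene 11450, chromosome 16, 22964106 to 22976810 on the plus strand of GRCm39) had 29355 counts in WT and 42763 in Ucp1-KO. After normalisation these were 26459 and 47443, a log2 ratio of 0.84 (95% counting interval 0.81 to 0.87). Adiponectin RNA was thus higher in Ucp1-KO, as was that of Metrnl among the other secreted members, and 90.4% of the genes examined had a lower ratio. The difference stayed below the 2-fold rule. In the annotation a long non-coding gene, Gm59709, lies on the opposite strand over 9.71% of the Adipoq exon sequence, and whether counting used strand was not stated.

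Lep (Entrez gene 16846, chromosome 6, 29060216 to 29073877, plus strand) had 821 counts in WT and 279 in Ucp1-KO. The normalised counts were 740 and 310, the WT level being 2.39 times that of Ucp1-KO, with a log2 ratio of -1.26 (-1.55 to -0.98). Leptin RNA was lower in the knockout by more than counting error, but the interval reached slightly inside the 2-fold rule.

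Retn (Entrez gene 57264, chromosome 8, 3705324 to 3710689, plus strand), the resistin gene, had 3418 counts in WT and 746 in Ucp1-KO. The normalised counts of 3081 and 828 differed 3.72-fold, with a log2 ratio of -1.90 (-2.06 to -1.73). Only 3.38% of the genes examined had a lower ratio.

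Rbp4 (Entrez gene 19662, chromosome 19, 38105066 to 38113754, minus strand) had 2411 counts in WT and 383 in Ucp1-KO. The normalised counts of 2173 and 425 differed 5.11-fold, with a log2 ratio of -2.35 (-2.58 to -2.13), the lowest of the 10 genes. The intervals of Retn and Rbp4 lay wholly beyond 2-fold in the lower direction, as did those of 3.72% of all genes examined. A neighbour of Rbp4, the fatty acid receptor gene Ffar4, is annotated on the opposite strand over 222 bp, or 15.6% of the Rbp4 exon sequence, with 1917 WT and 927 Ucp1-KO counts and a ratio of -0.75 (-0.91 to -0.59) on the log2 scale. Rbp4 is also a major hepatocyte transcript, and the hepatocyte gene Alb had 2 counts in either library, Apoa1 16 and 0, and Ttr 2 and 0. The part of liver cells in the Rbp4 counts was not tested.

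Nampt (Entrez gene 59027, chromosome 12, 32869544 to 32903368, plus strand) had 29954 counts in WT and 20916 in Ucp1-KO. Normalised, these were 26999 and 23205, a log2 ratio of -0.22 (-0.25 to -0.18). Nampt was among the most abundant of the 10 genes in both libraries, and its lower level in Ucp1-KO, 86.0% of WT, was beyond counting error but small beside those of Lep, Retn and Rbp4.

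Nrg4 (Entrez gene 83961, chromosome 9, 55121336 to 55234128, minus strand) had 4665 counts in WT and 3369 in Ucp1-KO. The normalised counts were 4205 and 3738, a log2 ratio of -0.17 (-0.26 to -0.08). Neuregulin 4 RNA in the knockout was 88.9% of the WT level. The gene Fbxo22 lies on the opposite strand over 11.3% of the Nrg4 exon sequence and had a log2 ratio of -0.12 (-0.23 to 0.00).

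Metrnl (Entrez gene 210029, chromosome 11, 121592370 to 121611770, plus strand) had 369 counts in WT and 467 in Ucp1-KO. The normalised counts of 333 and 518 gave a log2 ratio of 0.64 (0.35 to 0.93). Meteorin-like was a low-count gene beside Adipoq or Nampt, and its ratio had a wide interval that stayed above 0 and below the 2-fold rule.

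None of the receptors passed the 2-fold rule. Adipor1 (Entrez gene 72674, chromosome 1, 134343077 to 134361092, plus strand) had 4209 counts in WT and 3701 in Ucp1-KO, or 3794 and 4106 after normalisation. Its log2 ratio was 0.11 (0.02 to 0.20), but -0.19 when library totals and -0.09 when the adipocyte markers set the scale, so these data give it no direction. Adipor2 (Entrez gene 68465, chromosome 6, 119330111 to 119394668, minus strand) had 40481 and 30626 counts, or 36488 and 33978 after normalisation, with a log2 ratio of -0.10 (-0.13 to -0.07). Of the 10 genes it had the most counts in WT.

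Lepr (Entrez gene 16847, chromosome 4, 101574601 to 101676237, plus strand) had 13 counts in WT and 10 in Ucp1-KO. Its log2 ratio of -0.08 had an interval of -2.10 to 1.84, so a 2-fold difference in either direction was not detectable at this depth. Of the genes examined, 1.08% had a lower mean count. Leptin was thus measured in both libraries while its receptor was close to the limit of counting.

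**Figure D2:**
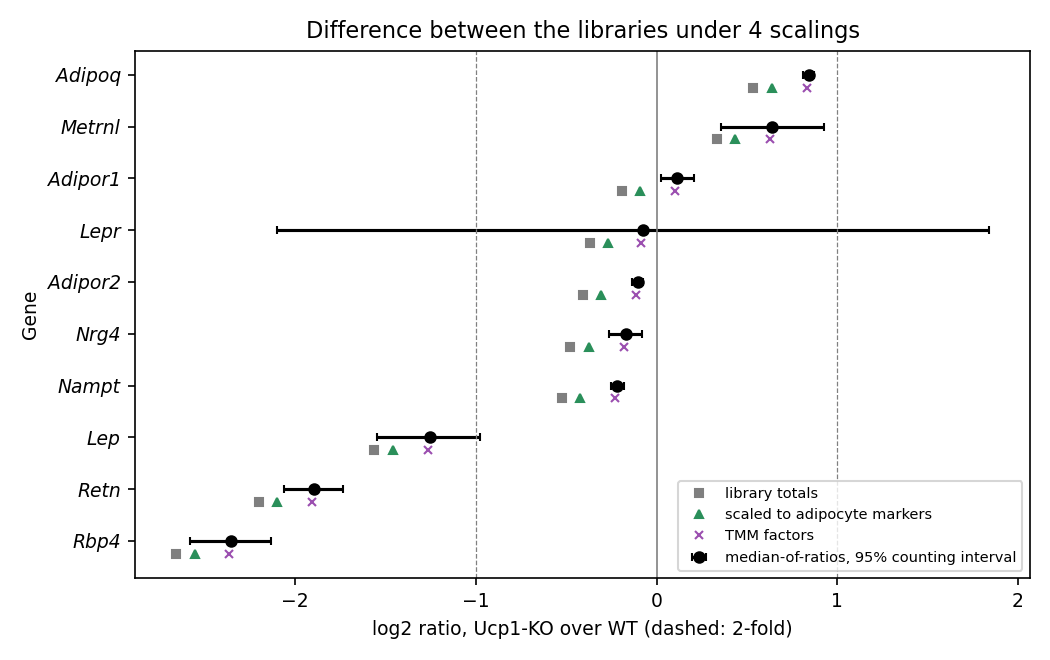
Log2 ratio of Ucp1-KO over WT for each of the 10 genes, as a circle with its 95% counting interval for median-of-ratios factors and as a square, triangle or cross for library totals, adipocyte markers or TMM factors as the scale; the solid line is 0 and the dashed lines mark 2-fold. Rbp4, Retn and Lep lie beyond the lower dashed line, the other 7 lie between the lines, and the sign of Adipor1 turns when library totals or adipocyte markers set the scale.

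**Figure D3:**
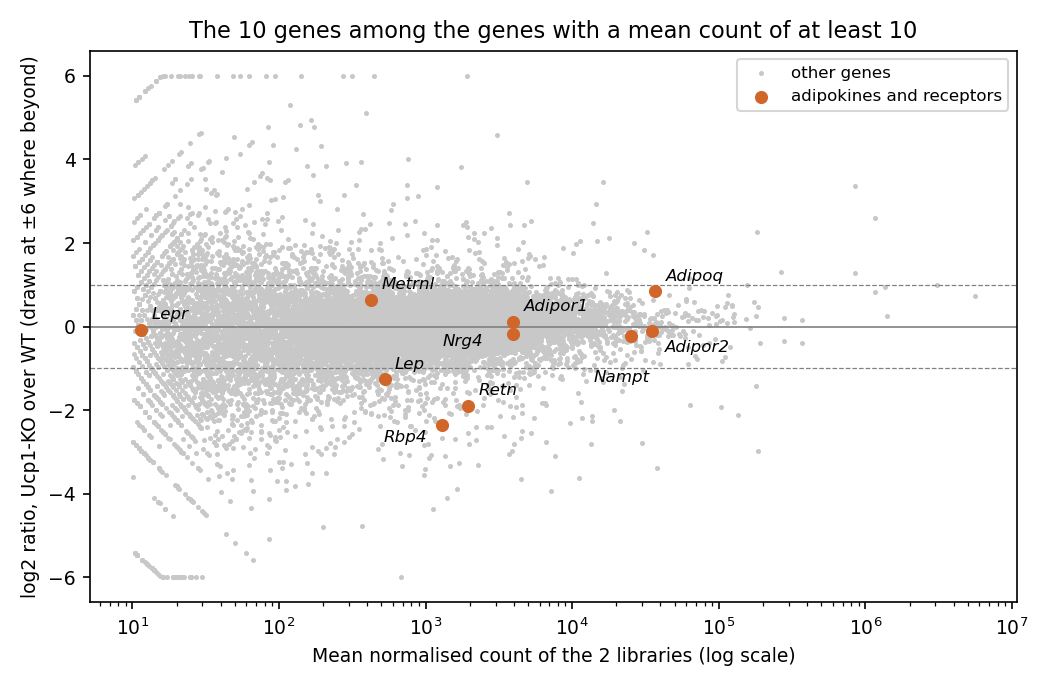
Log2 ratio of Ucp1-KO over WT against the mean normalised count (log scale) for the genes with a mean of at least 10, with the 10 genes in colour; dashed lines mark 2-fold, and ratios beyond 6 in size are drawn at 6. Rbp4 and Retn sit at the lower edge of the genes of similar abundance, while Adipor2, Nampt, Nrg4 and Adipor1 sit near 0.

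The levels of different genes can be compared only per length, and they were set per kilobase of annotated exon. In WT the order of normalised counts per kilobase was Adipoq (11620), Nampt (5090), Adipor2 (4745), Rbp4 (1523), Retn (1138), Adipor1 (556), Nrg4 (297), Lep (220), Metrnl (51.9) and Lepr (1.05), and no neighbours in that order had overlapping counting intervals. In Ucp1-KO it was Adipoq (20836), Adipor2 (4419), Nampt (4375), Adipor1 (602), Retn (306), Rbp4 (298), Nrg4 (264), Lep (92.2), Metrnl (80.9) and Lepr (0.996). There the counting intervals of Adipor2 and Nampt overlapped, as did those of Retn, Rbp4 and Nrg4 and those of Lep and Metrnl. Adipoq was thus first and Lepr last in both libraries, and Rbp4 and Retn stood above Adipor1 in WT and below it in Ucp1-KO.

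The middle of that order depends on which transcript is taken as the gene. Nrg4 has 14147 bp of annotated exon but a canonical transcript of 1927 bp. Per kilobase of canonical transcript Nrg4 had 2182 normalised counts in WT and 1940 in Ucp1-KO, and it then ranked 6 in WT and 4 in Ucp1-KO in place of 7 in both. Adipoq, Lep, Metrnl and Lepr kept ranks 1, 8, 9 and 10 with either length. Rbp4 and Retn changed places in WT, while Retn was above Rbp4 with either length in Ucp1-KO.

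**Figure D4:**
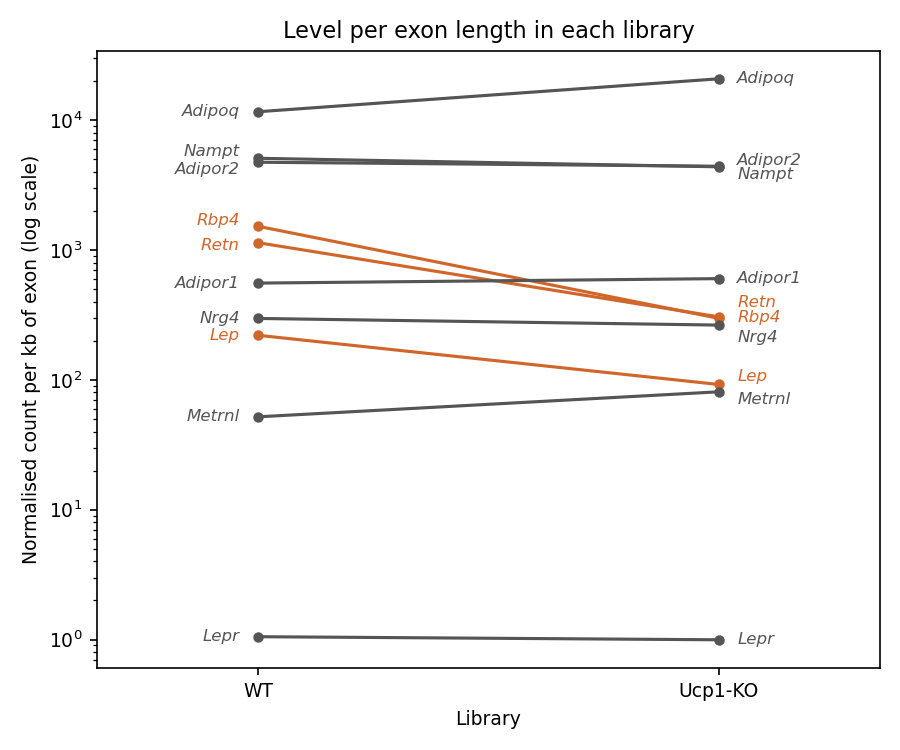
Normalised count per kilobase of annotated exon (log scale) of the 10 genes in the WT and the Ucp1-KO library, 1 line per gene, with the genes at least 2-fold lower in Ucp1-KO in colour. Adipoq is highest in both libraries at 11620 and 20836, the lines of Rbp4 and Retn drop across those of Adipor1, and Lepr is near 1 in both.

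Ratios of genes within a library do not depend on how the libraries are scaled. There were 12.2 counts of Adipoq for each count of Rbp4 in WT (95% counting interval 11.5 to 12.9) and 112 in Ucp1-KO (96.8 to 129), a 9.17-fold difference. The ratio of Adipoq to Retn counts was 8.59 in WT (8.17 to 9.03) and 57.3 in Ucp1-KO (51.7 to 63.7). That of Adipoq to Lep counts was 35.8 in WT (32.4 to 39.5) and 153 in Ucp1-KO (130 to 182). Adiponectin RNA therefore outweighed the other 3 by a wider margin in the knockout whatever the scale. For the receptors, the ratio of Adipor2 to Adipor1 per kilobase of exon was 8.53 in WT (8.15 to 8.93) and 7.34 in Ucp1-KO (6.99 to 7.71), so Adipor2 was the main adiponectin receptor transcript in both libraries.

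Genes that fold adiponectin, act below its receptors or bind it elsewhere differed by less than 2-fold, with 0 of 10 past the rule in either direction and a median log2 ratio of -0.14. Erp44, which retains adiponectin in the endoplasmic reticulum, had 2656 counts in WT and 2900 in Ucp1-KO (log2 ratio 0.43, 0.32 to 0.53). Ero1a, the oxidase that favours its release, had 1885 and 2537 (0.73, 0.61 to 0.85), while its relative Ero1b had 619 and 326 (-0.62, -0.91 to -0.35). The other named genes of this list were lower in Ucp1-KO or near 0. These were Plod1, a lysyl hydroxylase, at -0.34 (-0.42 to -0.27), the receptor adaptor Appl1 at -0.34 (-0.48 to -0.20), Gstk1, also known as DsbA-L, at -0.12 (-0.24 to -0.0043), and Cdh13, which encodes the adiponectin-binding T-cadherin, at -0.11 (-0.23 to 0.02).

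In the PAQR family of 11 genes, 1 was at least 2-fold lower and 1 at least 2-fold higher in Ucp1-KO, with a median log2 ratio of -0.37. With library totals as the scale these counts became 4 and 0. Mmd had 17777 counts in WT and 7179 in Ucp1-KO (log2 ratio -1.01, -1.06 to -0.95), and the higher gene, Paqr6, had 27 and 46, below the count at which genes were named and singled out after its value was seen. Paqr8 had a log2 ratio of -0.78 (-1.42 to -0.17), Paqr4 of -0.72 (-1.06 to -0.40) and Paqr7 of -0.40 (-0.89 to 0.08).

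Of 16 genes that carry or damp the leptin receptor's signal, 2 were at least 2-fold higher in Ucp1-KO and 0 lower, with a median log2 ratio of 0.22 that became -0.08 with library totals as the scale, where 1 was higher and 1 lower. Cish, a STAT5-induced suppressor of cytokine signalling, had 1583 counts in WT and 3087 in Ucp1-KO (log2 ratio 1.26, 1.14 to 1.39), and the second was Socs1 with 8 and 26 counts, named after its value was seen. Stat5a went the other way, with 2941 and 1216 counts (-0.97, -1.11 to -0.84). The kinase gene Jak2 (0.55, 0.44 to 0.66), Stat3, the main transcription factor of the pathway (0.43, 0.35 to 0.52), the phosphatase gene Ptpn2 (0.85, 0.72 to 0.98) and Irs1 (0.67, 0.57 to 0.78) had ratios above 0 within 2-fold. Socs3, a feedback inhibitor of the leptin receptor, had 125 and 66 counts and an interval that crossed 0 (-0.62, -1.28 to 0.01). Leprot, the leptin receptor overlapping transcript, which encodes another protein, had 1759 and 1463 counts (0.03, -0.11 to 0.18), so the low count of Lepr was not shared by it.

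Of the resistin family and the receptors proposed for it, 3 of 5 genes were examined and none passed 2-fold. Retnla, the resistin-like alpha gene, had 450 counts in WT and 538 in Ucp1-KO (log2 ratio 0.56, 0.30 to 0.82), the opposite direction to Retn. Cap1 (0.07, -0.01 to 0.15) and Tlr4 (0.08, -0.22 to 0.38) had intervals that crossed 0. Retnlb and Retnlg had 0 counts in both libraries, which allows up to 6 counts in each. The lower ratio of Retn was thus not seen in the other family member that was measured.

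Beside Rbp4, 12 of 21 genes of retinol transport and retinoic acid metabolism were examined, with a median log2 ratio of -0.11, and 1 was at least 2-fold higher in Ucp1-KO. Aldh1a1, which makes retinoic acid, had 1124 counts in WT and 459 in Ucp1-KO (log2 ratio -0.99, -1.22 to -0.77), and the receptor gene Rarb 780 and 377 (-0.75, -1.01 to -0.49). Aldh1a3 had 107 and 150 (0.78, 0.26 to 1.32), and the gene past 2-fold in the higher direction was Aldh1a2 with 15 and 34 counts, named after its value was seen. Ttr, which encodes the blood partner of RBP4, and Stra6, its receptor, were at the limit of counting, with 2 and 0 counts for Ttr and 6 in either library for Stra6.

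In NAD synthesis and use, 18 of 19 genes were examined, 1 being at least 2-fold lower and 1 at least 2-fold higher in Ucp1-KO, and the median log2 ratio was 0.12, or -0.19 with library totals as the scale. Both genes past 2-fold had low counts and were named after their values were seen: Nmrk2, which is enriched in muscle, had 48 and 2 counts, and Bst1 had 10 and 28. Nnt, the mitochondrial transhydrogenase gene, had 1038 counts in WT and 430 in Ucp1-KO (log2 ratio -0.97, -1.21 to -0.74), and Cd38, an enzyme that consumes NAD, 2580 and 1514 (-0.47, -0.60 to -0.34). Parp1 (0.41, 0.31 to 0.52) and Naprt (0.36, 0.19 to 0.54) were above 0. Nmnat1 (0.21, -0.13 to 0.55) and Nnmt (0.14, -0.04 to 0.32) had intervals that crossed 0, and that of Nmnat3 lay just below it (-0.27, -0.54 to -0.00079). The Nmnat enzymes make NAD from the product of Nampt, and Nnmt methylates its substrate nicotinamide. Nampt, at -0.22, or -0.53 with library totals as the scale, lay below the median of this list. A change of scale moves both alike and cannot alter that order.

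Of the neuregulins, EGF ligands and ErbB receptors, 9 of 14 were examined, with 3 at least 2-fold lower in Ucp1-KO and 1 at least 2-fold higher. Over all genes examined these shares were 9.55% and 7.42%. The median log2 ratio of the list was -0.41. With library totals as the scale 4 were lower and 1 higher, and the median was -0.72. The 3 lower genes on the main scale were the ligands Egf with 134 and 25 counts (-2.10, -3.12 to -1.24), Hbegf with 190 and 45 (-1.77, -2.51 to -1.10) and Btc with 510 and 152 (-1.44, -1.84 to -1.07). Tgfa, with 141 and 86 counts, had an interval that crossed 0 (-0.41, -0.996 to 0.15). Per kilobase of exon, Nrg4 had 297 normalised counts in WT and 264 in Ucp1-KO. Btc, the highest of these ligands, had 101 and 37.1. The Nrg4 receptor gene Erbb4 had 7 WT and 37 Ucp1-KO counts, for a log2 ratio of 2.61 (1.03 to 4.89) that rests on few reads. Erbb3 had 124 and 130 (0.37, -0.16 to 0.89) and Erbb2 570 and 374 (-0.31, -0.58 to -0.04). Nrg1, Nrg3, Areg, Ereg and Epgn had 0 counts in both libraries.

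Metrn, the closest relative of Metrnl, had 47 counts in WT and 40 in Ucp1-KO (log2 ratio 0.07, -0.87 to 0.99). Kit, a receptor proposed for meteorin-like, had 729 and 696 (0.23, 0.02 to 0.45), and Kitl, the established ligand of Kit, 13246 and 10134 (-0.09, -0.14 to -0.03). None of these 3 genes passed 2-fold, and the interval of Metrn covers the ratio of Metrnl.

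Of 37 other factors that adipose tissue secretes, 33 were examined, with 5 at least 2-fold lower and 6 at least 2-fold higher in Ucp1-KO and a median log2 ratio of -0.13. With library totals as the scale 7 were lower and 4 higher. Cfd, or adipsin, a classic adipocyte product, had 32219 counts in WT and 13860 in Ucp1-KO (log2 ratio -0.92, -0.96 to -0.88), short of 2-fold. Bmp8b, a brown fat factor, had 38 and 154 counts (2.30, 1.58 to 3.13), Spp1, or osteopontin, 24 and 118 (2.57, 1.69 to 3.63) and C1qtnf4 42 and 112 (1.70, 0.97 to 2.51). C1qtnf2, a paralogue of adiponectin as C1qtnf4 is, had 93 and 19 (-1.97, -3.17 to -0.97). C1qtnf4 thus had the direction of Adipoq and C1qtnf2 the opposite one. Secreted factors of this depot thus differed in both directions, and the shares past 2-fold, 5 and 6 of 33, stood beside 9.55% and 7.42% of all genes examined.

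Of 10 receptors for other adipose factors, 9 were examined and 2 were at least 2-fold lower in Ucp1-KO, with 0 higher and a median log2 ratio of -0.14. Both were receptors of chemerin, Ccrl2 with 142 and 42 counts (-1.45, -2.23 to -0.74) and Cmklr1 with 553 and 189 (-1.25, -1.60 to -0.91). Gpr1, a further chemerin receptor gene on the list, was not found under that symbol and so was not measured. Igf1r was at -0.52 (-0.68 to -0.37) and Tnfrsf1a at 0.48 (0.41 to 0.55).

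**Figure D5:**
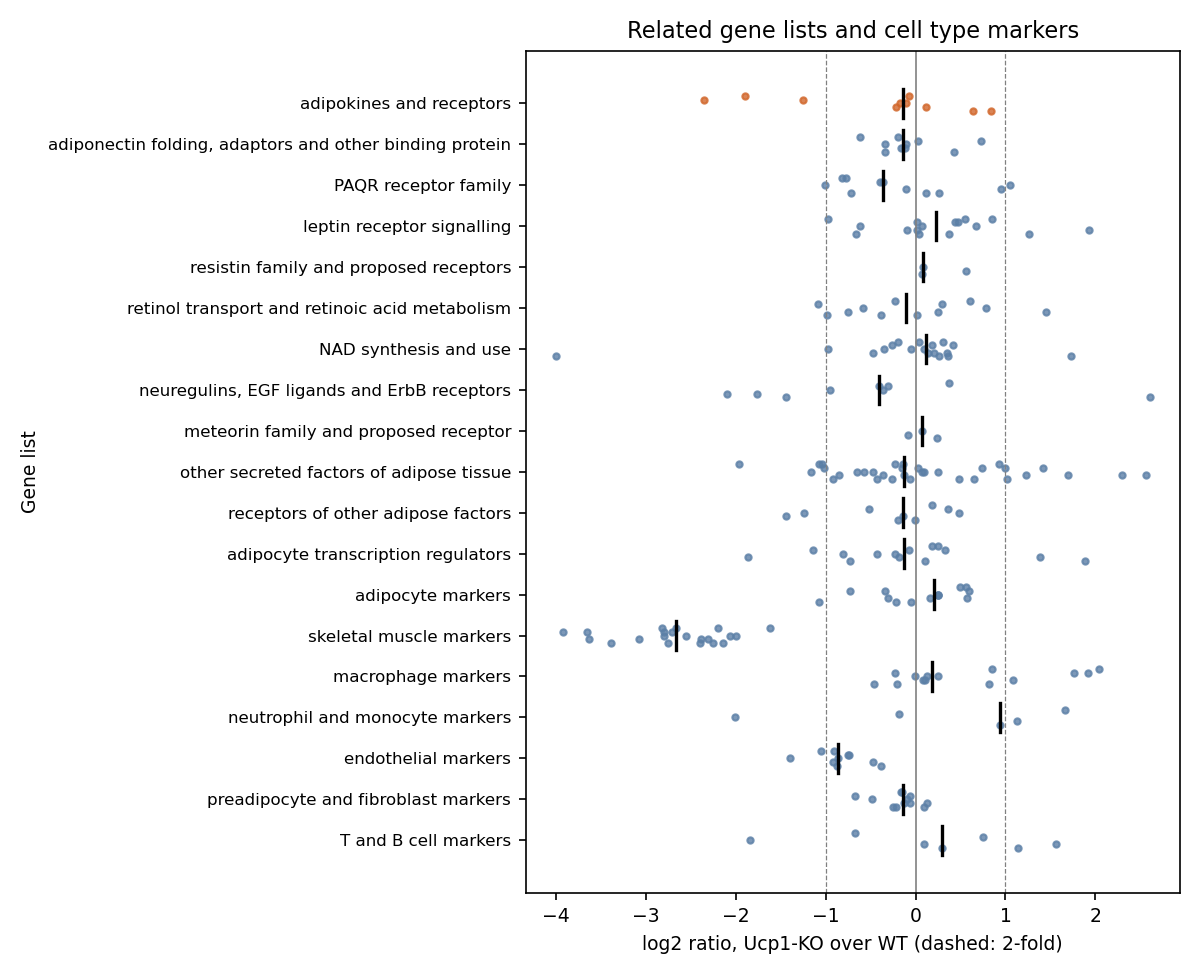
Log2 ratio of Ucp1-KO over WT for each examined gene (points) and its median (bar) in the 10 genes, the pathway lists around them and the cell type marker lists. The adipocyte markers centre at 0.20 and the 10 genes at -0.14, while all 21 skeletal muscle markers lie below -1. All ratios move by -0.31 when library totals set the scale.

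Markers of adipocytes and of other cells were measured in the same libraries and are given beside the lower levels of Lep, Retn and Rbp4. Of 14 adipocyte markers 1 was at least 2-fold lower in Ucp1-KO, with a median log2 ratio of 0.20 and a range from -1.08 for Adrb3, the beta-3 adrenergic receptor gene, to 0.59 for Lpl, the lipoprotein lipase gene. Retn and Rbp4 lay below that whole range, and Adipoq lay above it. Lep, at -1.26, was also below it, but its counting interval of -1.55 to -0.98 covered the ratio of Adrb3. Scaled to the adipocyte markers, the log2 ratios were -1.46 for Lep, -2.10 for Retn, -2.56 for Rbp4 and 0.64 for Adipoq.

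Of 14 regulators of adipocyte transcription 2 were at least 2-fold lower, Klf15 with 4258 and 947 counts (log2 ratio -1.87, -2.02 to -1.72) and Srebf1 with 7871 and 2907 (-1.14, -1.23 to -1.05), and 2 were at least 2-fold higher, Ppargc1a with 4105 and 12332 (1.89, 1.81 to 1.96) and Prdm16 with 1216 and 2586 (1.39, 1.25 to 1.53). The median log2 ratio of the list was -0.13.

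Past the 2-fold rule in the lower direction were all 21 skeletal muscle markers, with log2 ratios from -3.92 for Pvalb to -1.62, and none was at 0 counts in either library. Of 10 endothelial markers 2 were at least 2-fold lower and 0 higher, with a median log2 ratio of -0.87, summing to 0.252% of the WT and 0.122% of the Ucp1-KO counts. With library totals as the scale 8 of them were at least 2-fold lower. The lowest of them was Emcn, at -1.39 (-1.52 to -1.27). Of 12 preadipocyte and fibroblast markers 0 passed 2-fold, with a median of -0.14 and 0.202% against 0.149% of the counts, and Ly6a was at -0.68 (-0.76 to -0.60). The part of these cells in the lower Lep, Retn and Rbp4 was not tested.

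Of 14 macrophage markers 4 were at least 2-fold higher in Ucp1-KO and 0 lower, against 7.42% and 9.55% of all genes examined. The median log2 ratio was 0.19, or -0.12 with library totals as the scale, with 10 ratios above 0 and 4 below. Itgam was at 2.04 (1.58 to 2.55). Csf1r at -0.0067 (-0.23 to 0.21) and Cd163 at -0.47 (-0.67 to -0.26) were named after their values were seen. As a share of library totals the list summed to 0.0169% in both libraries. Of 10 neutrophil and monocyte markers 5 were examined, 2 being at least 2-fold higher and 1 lower. Ly6g, Camp and Retnlg had 0 counts in both libraries. S100a9 had 32 counts in WT and 83 in Ucp1-KO, while S100a8 had 42 and 30 and Ly6c2, the lower gene, 61 and 12. S100a8 and Ly6c2 were below the count at which genes were named, and were named after their values were seen. Of 7 examined T and B cell markers 2 were at least 2-fold higher and 1 lower, but no interval of this list lay wholly above 0. Cd79a was at 0.75 (-0.09 to 1.63) and Cd79b at -0.67 (-1.57 to 0.16). Of 8 epithelial and hepatocyte markers 0 reached the count at which genes were examined, Epcam and Krt8 being at 0 in both libraries, and of 6 reference genes 0 passed 2-fold, with a median log2 ratio of 0.057 and a log2 ratio of 0.45 (0.41 to 0.50) for Rplp0. The part of these cells in the ratios of the 10 genes was not tested.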

How the data were processed

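RNA of iBAT was sequenced in 1 WT and 1 Ucp1-KO library, each from 3 pooled animals. The authors deposited raw featureCounts counts per gene. The submitters' processing notes name Trim Galore, HISAT2 and mm39, with versions, annotation, and strand and multi-mapping settings not given in the sources used here. Genes without a symbol (1319) were kept.

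Counts were divided by size factors from DESeq2 1.42.0 (median of ratios, R 4.3.3), 1.11 for WT and 0.901 for Ucp1-KO. Low counts were mostly even (70.7% and 73.4% of counts from 1 to 10), so exact 95% intervals (Poisson for a count, Clopper-Pearson for a ratio) used read pairs, counts divided by 2. A count of 0 was taken to allow 3 pairs. Without molecular identifiers, intervals and limits cover counting error only. Interval code was tested on simulated data. Positions and lengths came from GENCODE release 39 (GRCm39), joined by symbol. Promoter sequences came from RefSeq.

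The 10 genes and the 20 other lists were chosen with earlier results of these data known. All 10 genes and a set of known partners were named, with all genes of lists of up to 5 and otherwise up to 4 genes per list, those with the log2 ratio largest in size whose normalised counts averaged 50 or more. For the marker and reference lists, 1 or 2 such genes are printed, beside genes marked as named after their values were seen. The result of 1 gene of retinol transport and retinoic acid metabolism is not reported here. Alternatives were library totals, TMM (edgeR 4.0.16), adipocyte markers or reduced totals as the scale, a pseudocount of 5, other filters and size rules, and counts in place of pairs.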

Additional observations from a re-analysis of the deposited data

How the results depend on the processing

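In each setting tried, 0 members were at least 2-fold higher in Ucp1-KO and 3 were lower, except that 2 were lower when a log2 ratio of 1.5 in size or an interval wholly beyond 2-fold was required. Scaling moved the log2 ratios of all genes by -0.31 with library totals and -0.20 with adipocyte markers, but by -0.011 with TMM. With library totals, the log2 ratio was 0.54 for Adipoq, -0.19 for Adipor1, whose direction turned, -0.41 for Adipor2, -1.56 for Lep, -2.20 for Retn, -2.66 for Rbp4, -0.53 for Nampt, -0.48 for Nrg4 and 0.33 for Metrnl, and the median of the 10 was -0.44. With adipocyte markers it was 0.64 for Adipoq, -0.089 for Adipor1, again turned, -0.31 for Adipor2, -2.10 for Retn, -0.42 for Nampt and -0.37 for Nrg4, with a median of -0.34. With mitochondrially encoded genes and skeletal muscle markers left out of the totals, the shift of all genes was -0.025 in place of -0.31. The shift with adipocyte markers follows from their own median log2 ratio of 0.20, which that scale removes. The cause of that median was not tested. Genes at least 2-fold higher and lower numbered 1128 and 1453, but 732 and 2320 with library totals, 2187 and 2844 with no filter, 617 and 811 at a mean of at least 50, 603 and 796 at a log2 ratio of 1.5, and 414 and 566 with intervals wholly beyond 2-fold. The median of the members was -0.17 without Lepr, left out after its counts were seen, or at a mean of at least 50. Depth limits Lepr and the other genes with few counts. No paired analysis was possible because there was 1 library per genotype, so no library could be left out either.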
